A study of Mus musculus with 16 samples.

Results

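The 6 genes described here lie on mouse chromosome 14: Ppp1r3e, Prmt5, Pnp2, Ang, Rnase4 and Lrmda. They were measured by RNA-seq of eWAT, the white fat pad that lies along the epididymis of the male mouse, and are 6 of the 20101 genes in the deposited expression table. They were chosen for differences between libraries labelled KO and WT on either diet, with Rnase4 added as the neighbour of Ang. The values of those differences, threshold calls included, are therefore given below as a description and support nothing. All 6 passed the filter on low values, as did 12667 genes in all, and 7434 genes did not.

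The 16 libraries came from mice 21 weeks old, with 4 libraries in each of 4 groups, each taken as a separate mouse. HFD KO mice carried the KO label and ate a high-fat diet with 60% fat from 5 weeks of age on. HFD WT mice were wild type on that diet. Chow KO and chow WT mice had the same labels and stayed on chow with 5% fat, which all mice ate before the high-fat diet began. The titles say KO, but the genotype entries read as a knockdown of ApoA4, the gene for a lipid-binding plasma protein. The making of the allele, any promoter or target cells, and the strain are not stated by the sources at hand.

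Apoa4 RNA was higher in the libraries labelled KO, which held 8.69, 9.63, 7.23 and 4.93 FPKM on HFD, against 0.29, 0, 0.08 and 0 FPKM in HFD WT. On chow it stood at 3.59, 1.96, 5.96 and 5.29 FPKM in KO-labelled libraries and at 0.29, 0.25, 0.23 and 0.09 FPKM in WT. KO and WT below stand for the labels, and each direction between them rests on those labels. FPKM, in which fragments are scaled by transcript length and library depth, allows levels of different genes to be compared per length. All 8 adipocyte markers were present in every group. Their summed level was 3410 to 14930 FPKM in HFD KO and 5542 to 18093 FPKM in HFD WT, against 16503 to 38635 FPKM in chow KO and 31351 to 33657 FPKM in chow WT. The 8 macrophage markers summed to 2159 to 7695 FPKM in HFD KO and 1674 to 8782 FPKM in HFD WT, against 643 to 777 FPKM in chow KO and 779 to 842 FPKM in chow WT. Epididymal transcripts stood out in 3 KO-labelled libraries, with 8 markers summing to 11275 FPKM in chow KO replicate 2 and, within HFD KO, 5436 FPKM in replicate 4 and 341 FPKM in replicate 2. No other library held more than 39.8 FPKM of them. In whole tissue, fewer cells of a type and less RNA per cell cannot be told apart.

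The 6 genes do not belong to a single pathway. Ppp1r3e encodes a regulatory subunit that brings protein phosphatase 1 to glycogen, where the phosphatase activates glycogen synthase and slows glycogen breakdown. Prmt5 encodes the main enzyme for symmetric dimethylation of arginine, which acts on histones and on the Sm proteins of the spliceosome. Pnp2 is a tandem copy of Pnp, the gene for purine nucleoside phosphorylase, which splits inosine and guanosine into base and sugar phosphate for salvage or breakdown. Ang (angiogenin) and Rnase4 encode small secreted ribonucleases of the RNase A family, and angiogenin is known for promoting vessel growth and for cutting transfer RNA under stress. Lrmda encodes a leucine-rich repeat protein needed for melanocyte differentiation, and loss of the human gene causes a form of oculocutaneous albinism.

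By position the genes fall into 3 places. RefSeq on GRCm38.p6 puts Lrmda (Entrez gene 76633) at chr14:22019504-23056093 on the forward strand, a gene body of 1037 kb. Pnp2 (gene 667034) lies 27.9 Mb further on, at chr14:50956141-50964751 on the forward strand. Ang (gene 11727, chr14:51091077-51102009) and Rnase4 (gene 58809, chr14:51091077-51106151) begin at the same base of the forward strand, 126 kb past Pnp2. Prmt5 (gene 27374, chr14:54507182-54517470) and Ppp1r3e (gene 105651, chr14:54875597-54877538) are on the reverse strand, 358 kb apart, with 3.41 Mb between Ang and Prmt5. The values are per gene, and isoforms were not analysed here.

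Ang and Rnase4 share a start and a promoter, which is shown because both genes were lower in KO on chow while only Ang had separate groups on HFD. Each RefSeq promoter entry covers 300 bases around a start on GRCm38.p6, most of them upstream, and is given 5′ to 3′. Capitals mark the CCAAT box (CCAAT, either strand) and the GC box (GGGCGG, either strand). The shared entry, chr14:51090827-51091126 on the forward strand, holds 2 CCAAT boxes and 1 GC box on the opposite strand, whose last base is also the first base of the second CCAAT box. The second Rnase4 entry, chr14:51095750-51096049, holds neither of them, nor a TATA box (TATAAA) or an E-box (CACGTG). Over 32851 promoter entries of the same length, 37.4% hold CCAAT, 35.7% hold GGGCGG, 13.6% hold TATAAA and 7.15% hold CACGTG, so these matches describe the letters only.
Ang and Rnase4 shared promoter: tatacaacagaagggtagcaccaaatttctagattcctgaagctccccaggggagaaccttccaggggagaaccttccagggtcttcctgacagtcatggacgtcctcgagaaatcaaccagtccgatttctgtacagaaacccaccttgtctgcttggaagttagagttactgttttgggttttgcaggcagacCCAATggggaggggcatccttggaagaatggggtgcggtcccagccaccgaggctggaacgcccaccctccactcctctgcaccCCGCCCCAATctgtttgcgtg
Rnase4 second promoter: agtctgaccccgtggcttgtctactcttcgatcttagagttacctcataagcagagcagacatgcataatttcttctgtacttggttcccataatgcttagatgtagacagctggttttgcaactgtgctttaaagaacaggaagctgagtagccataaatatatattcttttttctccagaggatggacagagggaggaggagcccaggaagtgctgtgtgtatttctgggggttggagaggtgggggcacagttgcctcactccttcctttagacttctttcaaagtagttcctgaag

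The exons of Ang and Rnase4 also overlap. In GENCODE M21, 219 exonic bases are common to both, 18.2% of the exonic bases of Ang and 13.4% of those of Rnase4, on the same strand. Of the distinct stretches of 50 bases in Ang transcripts, 14.5% also occur in Rnase4 or Ang2, and 7.75% of those in Rnase4 occur in Ang. How the authors' counting divided such reads is not stated by the sources at hand, and values of this pair are uncertain to that extent.

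The values of Pnp2 and Pnp are uncertain because the genes are near-identical copies. Their coding sequences match at 851 of 867 aligned bases, or 98.2%, with 16 differences and an identical run of up to 292 bases. Of the stretches of 50 bases in Pnp2 transcripts, 28.5% also occur in Pnp, Gm49342 or Gm38316. The coding sequence is 915 bases long in Pnp2 and 867 in Pnp, so Pnp2 also holds coding bases outside the alignment. The aligned stretch of 90 bases with the most differences is near the 3′ end of the coding sequence. This stretch is shown here from GENCODE M21 because its differing positions are among those that can tell Pnp2 reads from Pnp reads. It covers coding bases 822 to 911 of Pnp2 and 777 to 866 of Pnp, and capitals mark the 7 positions of 90 that differ.
Pnp2 coding stretch: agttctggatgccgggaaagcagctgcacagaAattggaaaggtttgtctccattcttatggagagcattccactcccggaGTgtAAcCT
Pnp coding stretch: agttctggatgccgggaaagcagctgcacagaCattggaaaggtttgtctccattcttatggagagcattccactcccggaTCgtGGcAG
No stretch of 50 bases of Ppp1r3e, Prmt5 or Lrmda transcripts was found in another gene.

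Which of the 6 genes differed between labels, and on which diet, can be read from the single libraries. Expression values were compared as log2(FPKM + 1), with differences of group means and their SE from limma. The threshold was a p under 0.05 after Benjamini-Hochberg adjustment over the 12667 genes tested. On chow, 5 of the 6 passed this threshold, against 1.41% of all genes, and on HFD 1 of 6 did, against 0.0316%. The groups did not overlap for 6 of 6 on chow, against 15.2% of all genes, and for 4 of 6 on HFD, against 6.83%. They were separate in the same direction on both diets for 4 of 6, Ppp1r3e, Prmt5, Pnp2 and Ang, against 0.663% of all genes. No support is drawn from these shares, because the same values chose the genes. On chow, Rnase4 came out of the threshold with a replicate block (adjusted p = 0.0739, limma) and without the 3 libraries holding epididymal transcripts (adjusted p = 0.0687). It also did so without any 1 of the chow WT replicates or without chow KO replicate 1, 2 or 4, with adjusted p from 0.0525 to 0.0974 by limma. Prmt5 came within it on chow with median-of-ratios scaling (adjusted p = 0.0312) and without HFD WT replicate 1 or 3 (adjusted p = 0.0394 and 0.0488, limma). The calls of the other 4 genes on chow and of all 6 on HFD were the same under every alternative that gave a value.

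Ppp1r3e was low in KO on both diets, at 0.79, 0.91, 0.96 and 1.59 FPKM in HFD KO, against 6.15, 4.77, 4.69 and 4.55 FPKM in HFD WT. On chow it stood at 1.86, 1.56, 1.16 and 1.38 FPKM in KO and at 5.13, 5.72, 6.48 and 5.76 FPKM in WT. The KO and WT libraries did not overlap on either diet, and the lowest WT library held 4.55 FPKM against 1.86 FPKM in the highest KO library. The mean in KO was 21.1% of that in WT on HFD and 25.8% on chow, with log2(FPKM + 1) differences of −1.56 (SE 0.14) and −1.45 (SE 0.14). It was the only gene of chromosome 14 past the threshold on HFD.

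Prmt5 differed by less. Its level was 13.64, 15.63, 16 and 15.39 FPKM in HFD KO, against 25.51, 20.57, 17.18 and 21.32 FPKM in HFD WT. On chow it was 17.74, 18.83, 15.71 and 15.25 FPKM in KO and 22.07, 22.56, 23.18 and 25.63 FPKM in WT. Again the KO libraries lay below the WT libraries of the same diet, although HFD WT replicate 3 came within the chow KO range. The KO mean was 71.7% of the WT mean on HFD and 72.3% on chow, and the log2(FPKM + 1) differences were −0.44 and −0.45 (SE 0.12 each). Of the values that chose the genes, those of Prmt5 lay outside the threshold on both diets, while its groups did not overlap.

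Pnp2 was at 1.62, 1.17, 1.89 and 0.12 FPKM in HFD KO, against 4.19, 2.06, 3.75 and 2.45 FPKM in HFD WT. In chow KO it was at 0.87, 1.03, 0.56 and 1.21 FPKM, against 6.98, 6.35, 5.46 and 4.85 FPKM in chow WT. The groups were separate on both diets, but on HFD the highest KO library and the lowest WT library lay close together, at 1.89 and 2.06 FPKM. The mean in KO was 38.6% of that in WT on HFD and 15.5% on chow, with log2(FPKM + 1) differences of −0.96 and −1.85 (SE 0.26 each). The lowest value, 0.12 FPKM, came from HFD KO replicate 4, a library with epididymal transcripts. Without the 3 such libraries the HFD difference was −0.55 and the chow difference −1.88, and the part of those transcripts in the result was not tested further.

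Ang stood at 3.74, 4.4, 1.72 and 2.47 FPKM in HFD KO, against 5.42, 7.46, 8.07 and 8.37 FPKM in HFD WT. On chow its values were 2.85, 1.09, 2.42 and 1.81 FPKM in KO and 12.53, 10.61, 11.08 and 10.16 FPKM in WT. No KO library reached the WT range of either diet. The KO mean was 42.1% of the WT mean on HFD and 18.4% on chow, with differences of −1.06 and −2.02 (SE 0.22 each) in log2(FPKM + 1). From the lowest mean to the highest, the groups ran chow KO, HFD KO, HFD WT and chow WT, and only the 2 KO groups overlapped each other.

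Rnase4 was the most abundant of the 6 per length, with a mean of 99.2 ± 10.7 FPKM in HFD KO and 102 ± 26.8 FPKM in HFD WT, against 98.5 ± 14.3 FPKM in chow KO and 169 ± 9.82 FPKM in chow WT (SD, n = 4 each). Its HFD KO libraries held 113.33, 95.84, 100.13 and 87.6 FPKM, against 80.87, 109.39, 79.98 and 136.16 FPKM in HFD WT. On chow it stood at 109.4, 81.85, 111.3 and 91.46 FPKM in KO and at 183.02, 166.42, 167.24 and 159.9 FPKM in WT. Chow WT was above every library of the other 3 groups, and those 3 groups overlapped one another. The KO minus WT difference was −0.0043 on HFD and −0.78 on chow in log2(FPKM + 1) (SE 0.16 each).

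Because Ang and Rnase4 share a start, the level of Ang was also set against that of Rnase4 in each library. Ang was 3.11% ± 1.19 of Rnase4 in HFD KO and 7.44% ± 1.79 in HFD WT, and 2.02% ± 0.530 in chow KO and 6.55% ± 0.233 in chow WT (SD of 4 libraries each). The KO libraries reached at most 4.59% on HFD and 2.61% on chow, while the WT libraries began at 6.15% and 6.35%. Ang was thus lower relative to Rnase4 in every KO library than in every WT library. For the near-identical copies Pnp2 and Pnp, which share no exonic bases, Pnp2 was 4.76% ± 3.07 of Pnp in HFD KO and 9.52% ± 4.00 in HFD WT, and 2.67% ± 0.736 in chow KO and 13.7% ± 1.22 in chow WT. These percentages overlapped between labels on HFD, with 7.49% in the highest KO library and 5.88% in the lowest WT library, and did not overlap on chow.

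**Figure D1:**
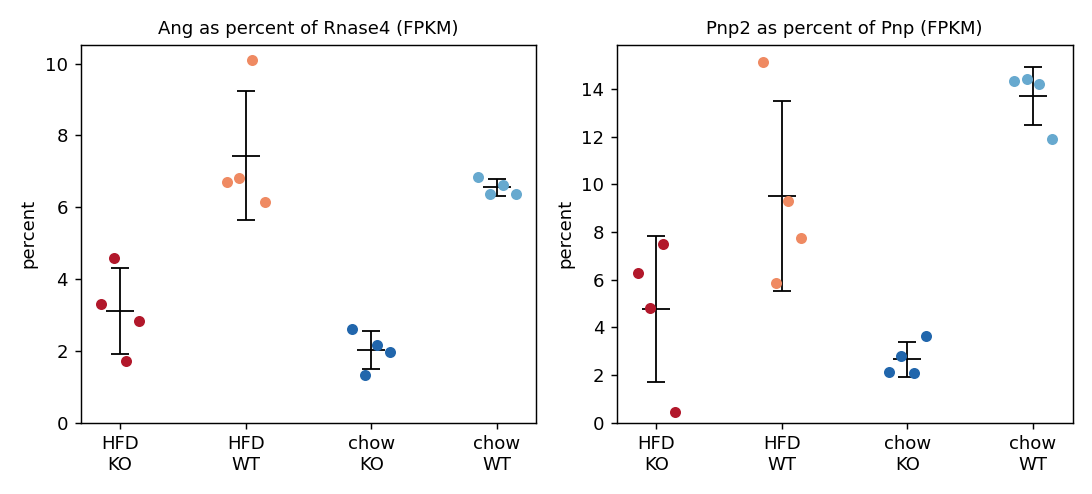
Ang as a percentage of Rnase4 (left) and Pnp2 as a percentage of Pnp (right), from FPKM, in each library of the 4 groups, with bars for mean and SD (n = 4). Ang lay at or below 4.59% of Rnase4 in every KO library and at or above 6.15% in every WT library, while the Pnp2 percentages of KO and WT overlapped on HFD.

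Lrmda had a different pattern from the other 5 genes. In HFD KO it was 6.13, 3.91, 4.46 and 7.26 FPKM, against 6.72, 4.15, 6.72 and 3.64 FPKM in HFD WT, and these groups overlapped. In chow KO it was 14.88, 8.51, 15.03 and 15 FPKM, against 1.01, 0.92, 1.15 and 1.28 FPKM in chow WT. The chow KO mean was 12.3 times the chow WT mean, and the log2(FPKM + 1) difference was 2.75 (SE 0.22) on chow and 0.04 (SE 0.22) on HFD. Among the 6 genes it was the only one higher in KO. The lowest chow KO library, replicate 2 with 8.51 FPKM, was the one with the most epididymal transcripts, and without the 3 libraries holding them the chow difference was 2.94.

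**Figure D2:**
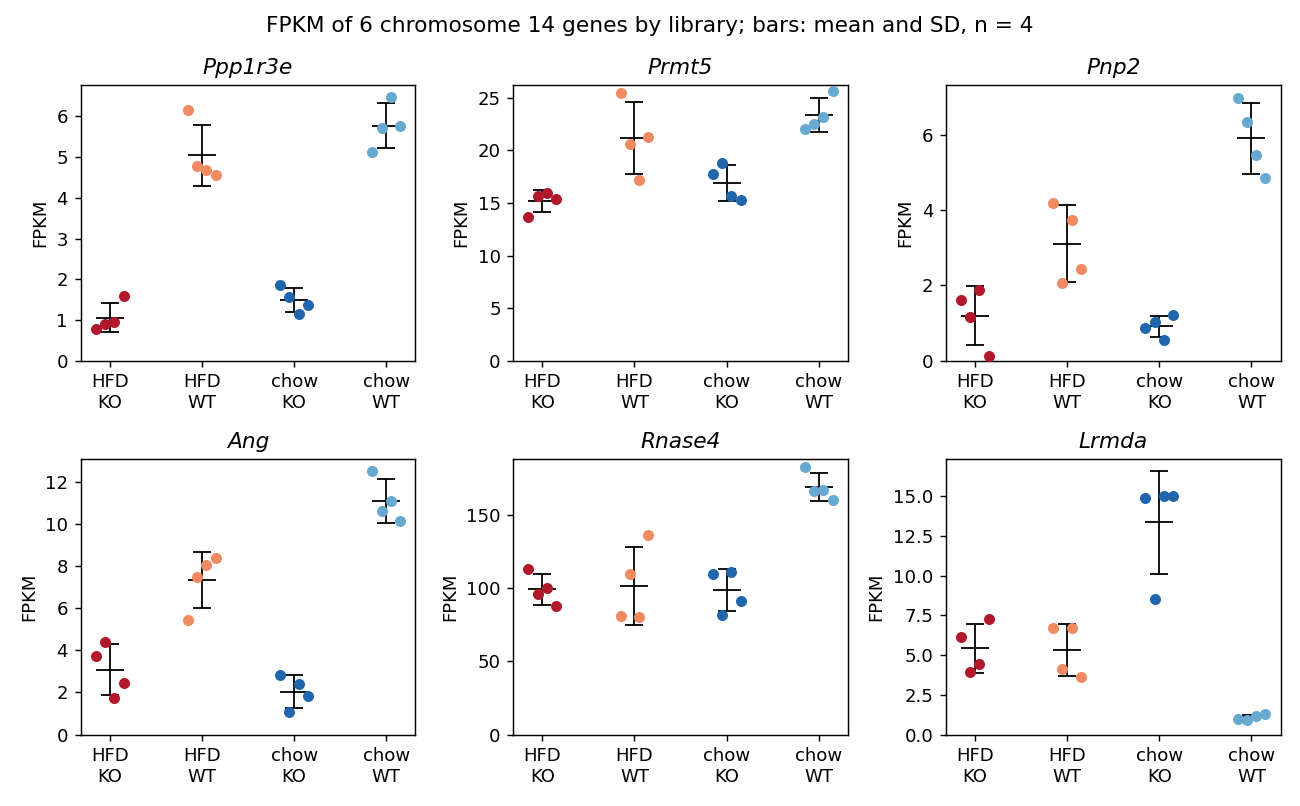
FPKM of the 6 genes in each of the 16 libraries, grouped by diet and label, with bars for mean and SD (n = 4). KO libraries lie below WT libraries on both diets for Ppp1r3e, Prmt5, Pnp2 and Ang. Chow WT lies above the other 3 groups for Rnase4, Ang and Pnp2 and below them for Lrmda.

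**Figure D3:**
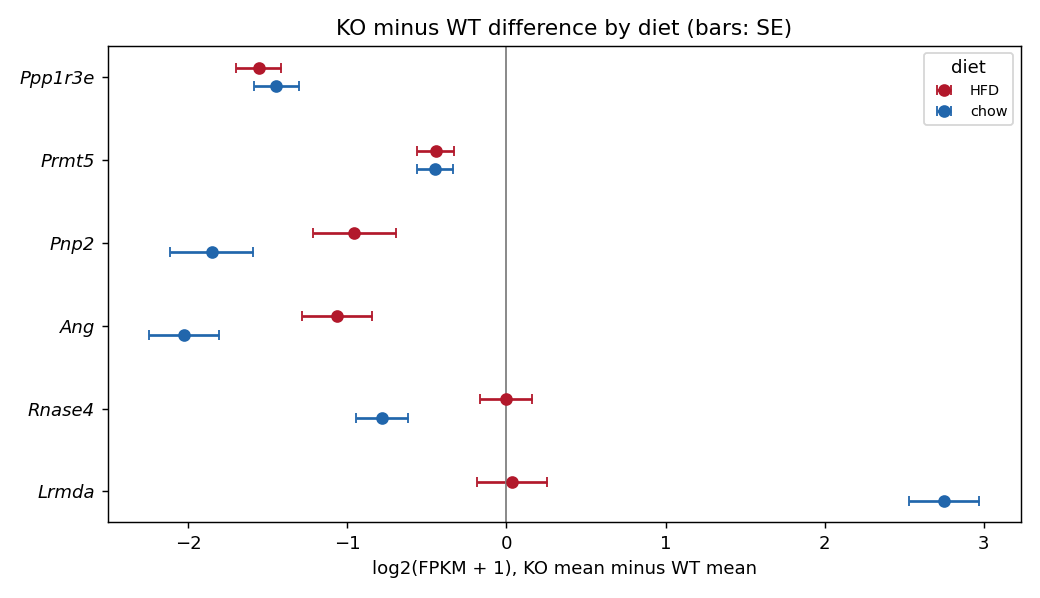
Difference between KO and WT group means in log2(FPKM + 1) on each diet, with bars for SE (n = 4 per group). Ppp1r3e and Prmt5 have nearly the same difference on HFD and chow, Pnp2 and Ang a smaller one on HFD, and Rnase4 and Lrmda one near 0 on HFD.

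Rnase4 and Lrmda thus set chow WT apart from the other 3 groups. Summed muscle markers (4 genes) also differed between the labels on chow, at 29.7 to 57.3 FPKM in chow KO and 215 to 574 FPKM in chow WT, with 65.1 to 929 FPKM in HFD KO and 57.9 to 194 FPKM in HFD WT. Of the 4 muscle markers, only Acta2 and Acta1 were separate between the labels on chow. Acta2 was at most 37.7 FPKM in chow KO and at least 95.31 FPKM in chow WT, and Acta1 at most 28.7 and at least 105.53 FPKM. Myh11 overlapped, at 1.84 to 7.91 FPKM in chow KO and 2.5 to 14.57 FPKM in chow WT. Ckm was at most 0.11 FPKM in any chow library. The part of these markers in the results for Rnase4, Lrmda, Ang and Pnp2 was not tested. Summed adipocyte markers overlapped between chow KO and chow WT. Summed macrophage markers narrowly did not, at 643 to 777 FPKM in chow KO and 779 to 842 FPKM in chow WT. Each list held single markers that were separate and lower in chow KO. They were the adipocyte markers Cidec (at most 1857 against at least 2688 FPKM) and Pnpla2 (883 against 1516 FPKM). Among macrophage markers they were Adgre1 (17.21 against 17.66 FPKM) and Cd68 (56.8 against 58.74 FPKM). The other markers of both lists overlapped. The part of the adipocyte and macrophage markers was not tested.

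The difference between diets was not used to choose the genes when both labels are weighed equally, so it was tested. Rnase4 was lower on HFD by 0.37 in log2(FPKM + 1) (SE 0.12, 95% interval −0.62 to −0.13, limma adjusted p = 0.0130). It was the only one of the 6 past the threshold, or 1 of 6, whereas 55.9% of all genes passed it in this comparison, 4116 higher and 2964 lower on HFD. The HFD KO and chow KO libraries of Rnase4 overlapped, while every HFD WT library lay below every chow WT library. Ppp1r3e had a difference of −0.22 (SE 0.10, interval −0.44 to −0.01, adjusted p = 0.0684), Pnp2 one of −0.32 (SE 0.18, interval −0.72 to 0.07, adjusted p = 0.147) and Prmt5 one of −0.15 (SE 0.08, interval −0.32 to 0.03, adjusted p = 0.144). Ang differed by −0.07 (SE 0.16, interval −0.40 to 0.26, adjusted p = 0.727) and Lrmda by 0.20 (SE 0.16, interval −0.13 to 0.53, adjusted p = 0.282). Without HFD KO replicate 4 the value of Pnp2 was −0.18, and without the 3 libraries holding epididymal transcripts it was −0.10. Lrmda was at 0.11 without chow KO replicate 2, at 0.10 without the 3 libraries and at 0.43 with a pseudocount of 0.1. Neither gene passed the threshold in these fits. The calls of Ppp1r3e and Prmt5 changed with the processing. With median-of-ratios scaling Ppp1r3e was at −0.28 (adjusted p = 0.0281) and Prmt5 at −0.23 (adjusted p = 0.0335), both past the threshold.

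Within each label the diets are compared as values only, since those groups also enter the differences that chose the genes. In KO libraries, Pnp2 differed between HFD and chow by 0.12, Ang by 0.41 and Rnase4 by 0.02, and their groups overlapped. In WT libraries the differences were −0.77 for Pnp2, −0.55 for Ang and −0.76 for Rnase4, with every HFD library below every chow library. Ppp1r3e and Prmt5 had overlapping diet groups under both labels, with differences between −0.28 and −0.14. Lrmda went in opposite directions, at −1.15 in KO libraries and 1.56 in WT libraries, with separate diet groups under each label, so its mean over labels was small. The HFD WT level of Lrmda was 4.87 times the chow WT level, and the HFD KO level was 40.7% of the chow KO level.

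**Figure D4:**
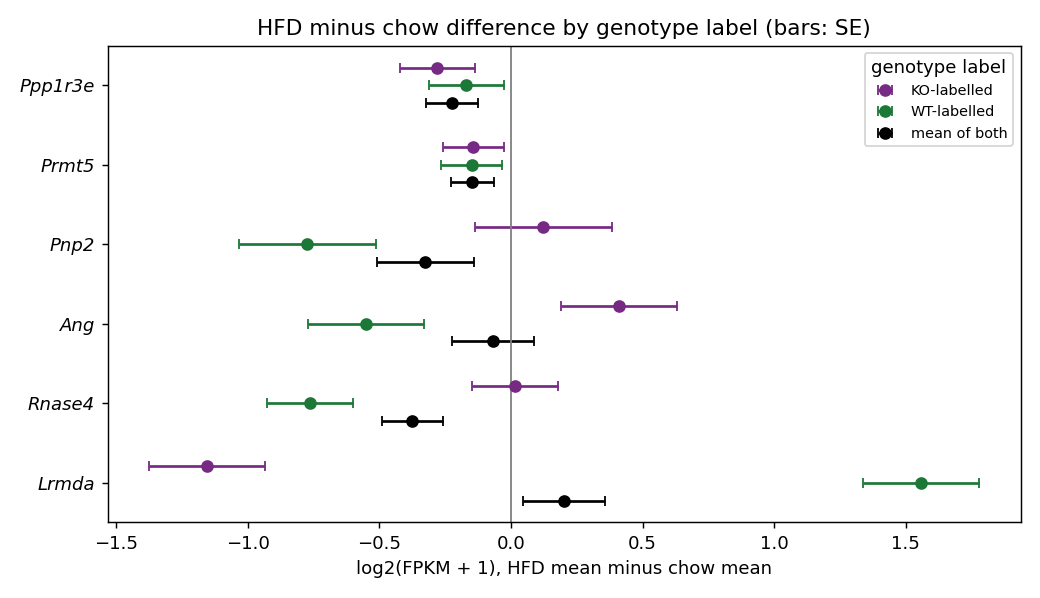
Difference between HFD and chow group means in log2(FPKM + 1) for KO libraries, WT libraries and the mean of both, with bars for SE. Lrmda lies at −1.15 in KO and 1.56 in WT. Rnase4, Ang and Pnp2 are below 0 in WT and near or above 0 in KO.

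Across the 16 libraries the 5 genes that were lower in KO were correlated with one another, which their choice fixes in part. Pearson's r of log2(FPKM + 1) was 0.90 for Ppp1r3e and Prmt5, 0.84 for Ppp1r3e and Ang, 0.83 for Pnp2 and Ang, and 0.70 for Ang and Rnase4, with the lowest values 0.50 for Ppp1r3e and Rnase4 and 0.52 for Rnase4 and Prmt5. Lrmda had r between −0.80 and −0.64 with the other 5. Deviations from the group means, which the choice did not fix, gave 0.55 for Ppp1r3e and Prmt5 and 0.52 for Ang and Rnase4, but −0.49 for Ang and Prmt5, −0.47 for Ppp1r3e and Rnase4, −0.37 for Ppp1r3e and Ang and −0.14 for Pnp2 and Ang. Both values of a point come from 1 library with its own depth and scaling, so these are descriptions over 16 points. The genes most like Ppp1r3e over the libraries were Prmt5 (r = 0.90), Mt2, a metallothionein (0.85), and Ang (0.84). Prmt5 was most like Ppp1r3e, Akr1e1 (0.88) and Wdfy1 (0.87), Pnp2 most like Ang, Pi4ka (0.83) and Mt2 (0.83), and Ang most like Pi4ka (0.85), Ppp1r3e and Pnp2. Rnase4 was most like Htra4 (0.89), Trib3 (0.88) and Mtmr14 (0.88), and Lrmda most like Ano8 (0.86), Psg16 (0.82) and Tsn (0.82). On deviations alone the closest genes were P2ry1 for Ppp1r3e (0.95), Atr for Prmt5 (0.93), P3h1 for Pnp2 (0.83), Dgka for Ang (0.88), Zfp101 for Rnase4 (0.92) and Msrb1 for Lrmda (0.78).

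The neighbours of the 6 genes were chosen by position and were tested. The 6 genes, chosen by their values, were left out of the neighbours but not of the shares over all genes. Counts of the neighbours are therefore not fully comparable with those shares. Within 500 kb of them lay 40 other tested genes. On chow 1 of the 40 passed the threshold, against 1.41% of all genes, and 9 of the 40 had an unadjusted p under 0.05, as did 1861 of all 12667 genes. The 1 gene was Slc7a8, a transporter of neutral amino acids 93.7 kb from Ppp1r3e. It was lower in KO by 1.74 in log2(FPKM + 1) (SE 0.33, limma adjusted p = 0.0165), at 7.82, 20.75, 8.59 and 7.54 FPKM in chow KO against 27.69, 45.37, 35.53 and 39.33 FPKM in chow WT, and the groups did not overlap. Leaving out chow WT replicate 2 or 4 or chow KO replicate 1 moved its adjusted p above 0.05 (adjusted p = 0.0734, 0.0596 and 0.0552). On HFD 0 of the 40 passed by limma, and 13 of the 40 had an unadjusted p under 0.05, as did 1500 of all 12667 genes. The smallest p there belonged to Oxa1l (0.45, adjusted p = 0.268). The median difference of the 40 neighbours was 0.09 on chow, as for all genes, and 0.20 on HFD, against 0.09 for all genes. Their groups were separate for 20% on HFD, against 6.83% of all genes, and for 15% on chow, against 15.2%.

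The genes nearby gave these differences between KO and WT in log2(FPKM + 1). Homez and Bcl2l2, a survival gene of the Bcl2 family, flank Ppp1r3e within 5.83 kb. Homez differed by 0.32 on HFD (adjusted p = 0.562) and 0.04 on chow (adjusted p = 0.958), and Bcl2l2 by −0.34 on HFD (adjusted p = 0.628) and 0.38 on chow (adjusted p = 0.547). Eddm3b, an epididymal gene 8.28 kb from Rnase4, differed by 2.15 on HFD (SE 1.19, adjusted p = 0.474) and 0.60 on chow (SE 1.19, adjusted p = 0.869). Lrp10, beside Prmt5, differed by 0.06 on HFD (adjusted p = 0.908) and 0.05 on chow (adjusted p = 0.921). Pnp, 2.73 kb from Pnp2, differed by −0.38 on HFD (SE 0.14, adjusted p = 0.346) and −0.32 on chow (SE 0.14, adjusted p = 0.289), with separate groups on HFD. Haus4, a subunit of the augmin complex of the spindle beside Prmt5, differed by 0.20 on HFD (SE 0.16, adjusted p = 0.644) and 0.57 on chow (SE 0.16, adjusted p = 0.0983), with separate groups on chow. Apex1, a DNA repair endonuclease somewhat farther away, 29.0 kb from Pnp2, differed by −0.36 on HFD (SE 0.15, adjusted p = 0.389) and by 0.43 on chow (SE 0.15, adjusted p = 0.221), with separate groups on each diet. Zfp503, one of the tested genes nearest to Lrmda, differed by 0.70 on HFD (SE 0.29, adjusted p = 0.378) and −0.18 on chow (SE 0.29). Kcnma1, on the other side of Lrmda, differed by 0.63 on HFD (SE 0.32, adjusted p = 0.444) and 0.02 on chow (SE 0.32, adjusted p = 0.985). No gene of this paragraph passed the threshold in the main fit. Haus4 passed it on chow in 1 of 25 alternatives (adjusted p = 0.0359, limma).

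**Figure D5:**
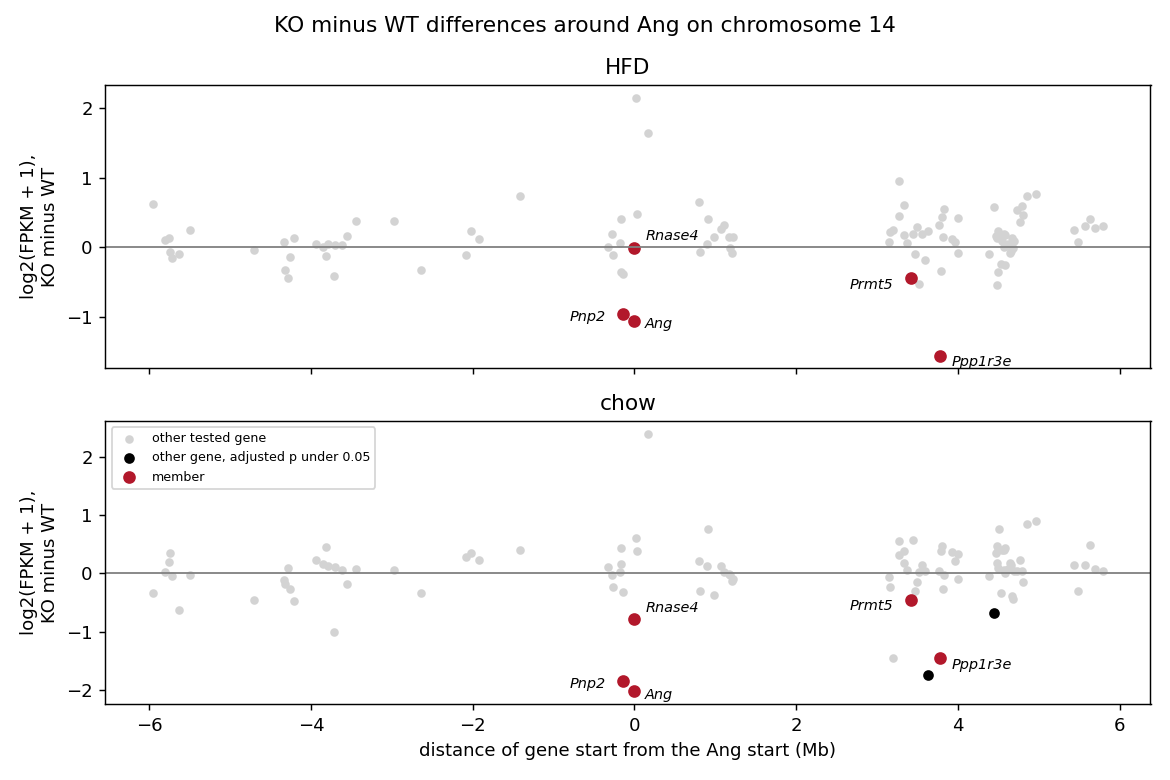
Difference between KO and WT group means in log2(FPKM + 1) of tested genes within 6 Mb of the Ang start, by distance, on HFD (top) and chow (bottom). Pnp2, Ang, Prmt5 and Ppp1r3e lie below 0 on both diets, most other genes lie near 0, and 2 other genes in the window, Slc7a8 and Pck2, passed the threshold on chow.

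Over chromosome 14 as a whole, 10 of 435 tested genes passed the threshold on chow, or 2.30%, against 1.41% of all genes. There were 3 higher and 7 lower in KO. Of the 10, 5 are among the 6 genes described here, which the same values chose. The others include Gm16867 (1.89), Slc7a8 (−1.74), Sh2d4b (−1.22) and Pck2, the mitochondrial enzyme that makes phosphoenolpyruvate (−0.69). Pck2 had separate groups in the opposite direction on HFD, higher in KO by 0.58 (SE 0.16, adjusted p = 0.302, limma). The share was higher on chromosome 18 (3.14%) and chromosome 6 (2.40%). Between 50 and 60 Mb of chromosome 14, 6 of 102 tested genes passed, or 5.88%, 4 of them members of the set. Just inside the threshold on chow were Pck2 (adjusted p = 0.0469) and Rnase4 (0.0288), and just outside were Rnase2a (0.0544), Zfp219 (0.0600), Socs4 (0.0716) and Prmt5 (0.0733). In all, 84 genes were separate between labels in the same direction on both diets, or 0.663% of all genes. Of these, 9 lay on chromosome 14, or 2.07% of its tested genes. Ranked by the smaller of both differences, Ppp1r3e came 4, Ang 7, Pnp2 9 and Prmt5 34 among the 84. These 4 are among the 9 of chromosome 14 and were chosen by the same values, so no support is drawn from the shares.

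The pathways of the 6 genes were read from 5 lists of 122 other genes, written with earlier results of these data known. The median KO minus WT difference of a list ran from 0.0072 (purine genes) to 0.22 (arginine methyltransferases) on chow and from −0.03 (purine genes) to 0.41 (RNase A family) on HFD, against 0.09 over all genes on each diet. Glycogen genes had 27 of 30 members tested. Between labels on chow 0 were higher and 1 was lower in KO, Gaa, the lysosomal enzyme that degrades glycogen, at 34.2 ± 2.05 FPKM in KO and 53.4 ± 6.94 FPKM in WT (SD, n = 4 each), a difference of −0.62 (SE 0.12, limma adjusted p = 0.0228). That call was lost when chow WT replicate 2, 3 or 4 or chow KO replicate 1 was left out (adjusted p = 0.0838, 0.0864, 0.0514 and 0.0641). On HFD 0 of the 27 passed by limma, with 1 at an unadjusted p under 0.05. Between diets, 8 of the 27 were higher and 11 lower on HFD, beside 55.9% of all genes called in either direction, with a median of −0.02 against 0.07 over all genes. Within each label, summed adipocyte markers were lower and macrophage markers higher on HFD, with the ranges given above. The adipocyte marker Lep did not follow its sum. It was at 97.51 to 462.75 FPKM in HFD KO and 108.53 to 315.94 FPKM in chow KO. In HFD WT it was at 271.16 to 1267.1 FPKM, against 198.1 to 319.08 FPKM in chow WT. The part of these markers in the diet counts of this list and of the 4 lists that follow was not tested. The lower ones include the glycogen phosphorylase Pygl, at 30.1 and 29.6 FPKM in HFD KO and HFD WT, against 78.6 and 94.3 FPKM in chow KO and chow WT (−1.48, SE 0.16, adjusted p = 5.58e-06). Glycogen synthase Gys1 (−1.58, adjusted p = 1.62e-05), the phosphorylase Pygb (−1.70, adjusted p = 3.25e-06) and the phosphorylase kinase subunit Phkg1 (−1.81, adjusted p = 2.64e-06) fell as well on HFD. Of the other phosphatase 1 targeting subunits, Ppp1r3c fell on HFD by 1.93 (SE 0.29, adjusted p = 7.01e-05), and Ppp1r3b was higher by 0.55 (SE 0.15, adjusted p = 0.00542). Ppp1r3d did not pass, and Ppp1r3a, Ppp1r3f and Ppp1r3g were under the filter. Between labels, Ppp1r3b was higher in KO by 0.87 on chow (limma adjusted p = 0.0539) and 0.48 on HFD (adjusted p = 0.390). Its groups were separate on both diets. Ppp1r3c differed by −0.61 on chow and 0.16 on HFD, and Ppp1r3d by 0.34 and −0.38. None of these passed the threshold.

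Among purine salvage and nucleoside breakdown genes, 23 of 24 were tested and 0 passed between labels on either diet by limma, with 1 on HFD and 3 on chow at an unadjusted p under 0.05. Between diets 15 of the 23 were higher and 3 lower on HFD, beside 55.9% of all genes called, with a median of 0.50 against 0.07 over all genes. Aprt, which salvages adenine, was higher by 2.03 (SE 0.28, adjusted p = 3.70e-05). The nucleoside transporter Slc29a1 stood at 27.3 and 28.7 FPKM in HFD KO and HFD WT, against 12.4 and 13.3 FPKM in chow KO and chow WT (1.04, SE 0.17, adjusted p = 0.000169). The transporter Slc29a3 (1.24, adjusted p = 4.69e-05) and the kinase Dck (1.08, adjusted p = 0.00022) were also higher on HFD. Pnp fell on HFD by 0.38 (SE 0.10, adjusted p = 0.00358), with means of 25.4 and 33.6 FPKM in HFD KO and HFD WT, against 34.4 and 43.0 FPKM in chow KO and chow WT.

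The list of RNase A family genes, their inhibitor and receptor had 21 members, of which 17 had an entry and 6 were tested. Between labels 0 passed on either diet by limma, with 3 on HFD and 2 on chow at an unadjusted p under 0.05. Rnase2a, which lies on the same stretch of chromosome 14, was at 6.97, 5.3, 28.43 and 44.07 FPKM in chow KO, against 1.07, 1.96, 2.56 and 2.96 FPKM in chow WT, without overlap (2.40, SE 0.58, adjusted p = 0.0544). It passed in 3 of 25 alternatives, with a lowest adjusted p of 0.0247 by limma. Among them were the fits without chow KO replicate 2 (2.85, adjusted p = 0.0282) and without HFD WT replicate 1 (adjusted p = 0.0430). Between diets 3 of the 6 were higher and 1 lower on HFD, beside 55.9% of all genes called, with a median of 0.58 against 0.07 over all genes. Rnh1, the cytoplasmic ribonuclease inhibitor that binds angiogenin, stood at 109 and 142 FPKM in HFD KO and HFD WT, against 39.8 and 35.7 FPKM in chow KO and chow WT (1.59, SE 0.25, adjusted p = 8.48e-05). Plxnb2, a receptor for angiogenin, was higher by 2.07 (SE 0.32, adjusted p = 9.34e-05). Ear1, an eosinophil ribonuclease listed at 0 in every chow WT library, is also counted as higher. It passed the filter on low values only through HFD libraries. Its mean was 2.295 FPKM in HFD KO and 0.7275 FPKM in HFD WT, against 0.035 FPKM in chow KO. The call for Ear1 is therefore no support, and 18 of 25 alternatives gave it a value. Rnase2a was the gene that fell (−1.65, SE 0.41, adjusted p = 0.00319). The closest relatives of Ang were nearly silent: Ang2, Ang4 and Ang5 averaged at most 0.128 FPKM in any group.

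The genes beside Ang include ribonucleases of the epididymis. Rnase10 reached 930 FPKM in chow KO replicate 2 and Rnase9 and Rnase12 reached 375 and 341 FPKM in HFD KO replicate 4, both libraries with epididymal transcripts. In those libraries Ang was 1.09 and 2.47 FPKM and Rnase4 81.9 and 87.6 FPKM, the lowest of their groups for Rnase4. Without the 3 libraries the KO minus WT difference of Ang was −1.20 on HFD and −1.86 on chow, and that of Rnase4 was 0.10 on HFD and −0.70 on chow.

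Of the arginine methyltransferases and partners of Prmt5, 19 of 20 were tested and 0 passed between labels on either diet by limma, with 3 on HFD and 3 on chow at an unadjusted p under 0.05. Between diets 5 of the 19 were higher and 2 lower on HFD, beside 55.9% of all genes called, with a median of 0.06 against 0.07 over all genes. Prmt7, another enzyme of the family, was higher by 0.63 (SE 0.10, adjusted p = 0.000136). The Sm proteins Snrpd3 (0.64, adjusted p = 0.00156) and Snrpd1 (0.52, adjusted p = 0.0153), which Prmt5 methylates, were higher too. Gemin2, which helps to load Sm proteins on small nuclear RNA, fell by 0.50 (SE 0.15, adjusted p = 0.0129).

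Melanocyte and lysosome-related organelle genes, the setting in which Lrmda is known, had 20 of 27 members tested and 0 past the threshold between labels on either diet by limma, with 2 on HFD and 3 on chow at an unadjusted p under 0.05. The pigment genes Tyr, Tyrp1, Pmel, Oca2, Slc45a2 and Gpr143 averaged below 1 FPKM in each group. Dct, another enzyme of melanin synthesis, averaged 0.228 FPKM in HFD KO and 0.510 FPKM in HFD WT, against 1.295 FPKM in chow KO and 0.895 FPKM in chow WT. Mlana, a melanosome protein, averaged 1.29 FPKM in HFD KO and 0.263 FPKM in HFD WT and was listed at 0 in every chow library. Between diets 9 of the 20 were higher and 3 lower on HFD, beside 55.9% of all genes called, with a median of 0.27 against 0.07 over all genes. Dct is counted among the lower ones (−0.64, SE 0.16, limma adjusted p = 0.00375). Its mean reached 1 FPKM only in chow KO, and no library held more than 1.84 FPKM. The call for Dct therefore leans on the group where it is high and is no support. Hps1, a subunit of a complex that builds these organelles, was higher by 0.60 (SE 0.08, adjusted p = 1.66e-05), as were the adaptor subunits Ap3m1 (0.73, adjusted p = 0.000184) and Ap3d1 (0.55, adjusted p = 0.000467). Bloc1s1 fell by 0.76 (SE 0.09, adjusted p = 6.89e-06), at 45.8 and 57.9 FPKM in HFD KO and HFD WT, against 88.0 and 88.3 FPKM in chow KO and chow WT.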

How the data were processed

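RNA-seq of mouse white fat beside the epididymis, in 16 libraries with 4 per group, was analysed from the table of FPKM deposited by the authors, rounded to 2 decimals. Per the labels' protocols, RNA was taken with TRIzol and libraries were made with an MGIEasy kit. The submitters' processing notes name STAR 2.7 with GRCm38.p6 and mm10 as builds. Which tool made the FPKM, with what annotation and strand setting, is not stated by the sources at hand. The table holds 20101 genes, 14408 circular RNA entries that were kept out, and 1 entry of neither kind. Of the genes, 156 had no RefSeq entry, and 26 symbols turned into dates were restored from their Entrez numbers.

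Values were turned into log2(FPKM + 1), a pseudocount of 1, which understates the change of low genes. Genes with at least 1 FPKM in at least 4 libraries were fitted with limma 3.58.1 in R 4.3.3, with 4 group means in 1 fit and a variance trend, and p-values were adjusted by Benjamini-Hochberg over all genes tested. The fit was tested on simulated data. The members, lists, tests and alternatives were chosen with earlier results of these data known. Genes named are the 6 members, their nearest tested neighbours, up to 4 neighbours with the smallest p, the 3 genes most alike, up to 4 genes of each list with the smallest p past the threshold, and those at the threshold; paralogues were described by range. Others (Gm16867, Sh2d4b, Pnp and Dct between diets, Ppp1r3b, Ppp1r3c and epididymal ribonucleases) were singled out after their values were seen. A result for 1 other gene of chromosome 14 is not reported here.

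The depth behind a value is unknown from FPKM, so no counting interval is given. The circular RNA values, whole multiples of a step, give a relative depth of 0.761 in chow KO replicate 4, the lowest, and 1.44 in HFD KO replicate 4, the highest. Replicate numbers were checked for pairing: of 24 same-number pairs 8 had a correlation of deviations over 0.1, with a range of −0.630 to 0.367. Pairs of different numbers were not compared, so this check cannot exclude pairing. The main fit took the samples as unpaired, and a replicate block is among the alternatives below. The titles number the libraries as replicates, with 4 per group, and each was taken as a separate mouse.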

Additional observations from a re-analysis of the deposited data

Results flagged for a closer look

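In 24 groups of 4 libraries (6 genes in 4 groups), 2 single libraries stood far from the other 3 by Dixon's criterion, which chance passes in about 1 of 20 groups. Ppp1r3e in HFD WT replicate 1 was 6.15 FPKM, above 4.77, 4.69 and 4.55 FPKM in the others. Lrmda in chow KO replicate 2 was 8.51 FPKM, below 14.88, 15.03 and 15 FPKM, and that library held 11275 FPKM of summed epididymal markers.

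The HFD minus chow difference of Lrmda in KO libraries less that in WT libraries was −2.71 in log2(FPKM + 1), since every KO library was lower and every WT library higher on HFD than on chow. This difference was not tested, because the same groups chose the gene.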

How the results depend on the processing

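The alternatives were 2 other scalings, 2 pseudocounts, 2 filters, a replicate block, no variance trend, leaving out each library and leaving out the 3 libraries with epididymal transcripts. The count of genes past the threshold between labels on chow was 178, and 115 with the replicate block, which left the HFD count at 3 against 4 and changed no diet call of the 6 genes. Leaving out a library gave 55 to 230 on chow, and counts under 178 by over 1.5 times came without chow WT replicate 1 (90), 2 (55), 3 (79) or 4 (61) or chow KO replicate 1 (87). On HFD the count of 4 (3 higher and 1 lower in KO) became 9 with median-of-ratios scaling (4 higher and 5 lower), 0 with a mean FPKM of at least 5 (1006 genes at an unadjusted p under 0.05), 19 without the 3 libraries and 3 to 10 when a library was left out. The diet count was 7080, and 5319 to 7963 over all alternatives. Median-of-ratios scaling moved the median KO minus WT difference of all genes on HFD to −0.04, against 0.09, and the share of higher calls on chow to 18.5%, against 30.3%.

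For diet, Ppp1r3e passed the threshold with median-of-ratios scaling (−0.28, adjusted p = 0.0281, limma) and without the 3 libraries (−0.28, adjusted p = 0.0289), and ranged from −0.28 to −0.19 when a library was left out, past it without chow KO replicate 3, HFD WT replicate 1 or HFD KO replicate 4. Prmt5 passed with median-of-ratios scaling (−0.23) and without HFD WT replicate 1, in a range of −0.19 to −0.10. Ang turned to 0.020 without HFD KO replicate 3, in a range of −0.15 to 0.020. Rnase4 kept its call in 25 of 25 alternatives (adjusted p 0.00214 to 0.0310). A mean FPKM of at least 5 left Ppp1r3e and Pnp2 without a value. The same alternatives were added after seeing the data for part of the other named genes and comparisons, and no direction among those changed. The rest, such as Homez, Lrp10 and Kcnma1 between labels, were not followed through the alternatives. Pck2 lost its call in 15 of 25 and Sh2d4b in 5 of 24. The cause of these changes was not tested. With 4 libraries per group, the spread between libraries limits what can be called.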
